A study of Mus musculus with 6 samples.

Results

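The genes described here are 51 genes of the mitotic spindle, the kinetochore and condensin, of 14051 genes in a bulk RNA-Seq table of circulating donor CD8+ T cells from the BM. They were chosen by symbol from what their proteins do in cell division, and they fall into 9 role groups. All 51 were listed and all 51 passed the filter for testing, which asked for 10 normalized counts or more in 3 or more libraries. The table holds 6 libraries, 3 labelled GC-treated and 3 labelled vehicle-treated. Where 3 values follow each other, they belong to replicates 1, 2 and 3 of a label.

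All libraries came from B6D2F1 recipients that were irradiated and transplanted with T cells that had been purified from B6.CD45.1 donors. The GC-treated recipients were given dexamethasone, a synthetic glucocorticoid (GC), at 5 mg/kg/day from day -1 to day 5. The vehicle-treated recipients were given methyl-β-cyclodextrin over the same days. On day 5 an i.v. injection of PE-labelled anti-CD45 marked the cells inside vessels, and the PE+ CD45.1+ CD8+ fraction was sorted after the BM of 2 to 3 mice per biological group had been pooled. The sources used here do not say that each library had its own pool, so the p-values below measure the spread between these libraries, which may be technical. In bulk RNA, fewer dividing cells and less mitotic RNA per dividing cell cannot be told apart.

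Mitosis separates the copied chromosomes in a fixed order. CDK1 with cyclin B starts it, condensin and topoisomerase II compact the chromosomes, kinetochores attach them to spindle microtubules, and the spindle assembly checkpoint holds anaphase until every kinetochore is attached. The anaphase promoting complex then releases separase, which cuts cohesin, and cytokinesis divides the cell. Most of these genes are transcribed late in the cell cycle, and CD8+ T cells that respond to alloantigen divide rapidly.

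Reads on the 14051 genes numbered 67887570 to 76888118 in the libraries labelled GC-treated and 60949593 to 64801008 in those labelled vehicle-treated. No pair of libraries was as alike as counting noise alone would make it. Over all tested genes the chi-square per gene was smallest, 21.2, between GC-treated 1 and vehicle-treated 1. Between GC-treated 1 and GC-treated 2 and 3 it was 105 and 151. GC-treated 2 and 3 had 94 between them. GC-treated 2 was closer to vehicle-treated 3, with 61.8, and to vehicle-treated 1, with 86.1. Among 11 tested glucocorticoid receptor targets, genes that GC is known to raise, 9 had negative and 2 positive log2 fold changes. At an unadjusted p under 0.05, 3 were lower and 2 higher, beside 5.07% and 2.12% of all tested genes. Il7r, which encodes the IL-7 receptor and had the smallest p, had a log2 fold change of -1.05. The higher ones, named after their values were seen, were Dusp1 with 0.47 and Nfkbia with 0.31. Fkbp5, which encodes a GC-induced co-chaperone of the receptor, had normalized counts of 21148, 16401 and 14780 under the GC label and 24888, 32705 and 21271 under the vehicle label. Tsc22d3, which encodes the GC-induced protein GILZ and was named after its values were seen, had 1521, 3267 and 4689 against 2619, 4755 and 2994, so the groups overlapped. The directions below therefore follow the labels as deposited. Of 10 CD8+ T cell markers 9 were listed and tested, with summed normalized counts of 537939, 639690 and 619713 under the GC label and 575960, 523397 and 589289 under the vehicle label. The sums were highest in GC-treated 2 and 3 and lowest in vehicle-treated 2. Not every marker followed them: Ptprc was lowest in GC-treated 3 with 127586, and Cd3e was highest in vehicle-treated 1 with 28358. The part of these markers in the mitotic values was not tested.

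The mitotic genes were abundant in all 6 libraries. Their normalized counts, which are reads divided by the size factor of the library, ranged from 1954 for Kifc1 in GC-treated 2 to 72484 for Top2a in vehicle-treated 2, not corrected for length. Per kilobase of transcript their mean normalized counts ran from 656 for Aspm to 23284 for Birc5, with a median of 3896. All 51 lay above 563, the median over all tested genes on the same scale.

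No mitotic gene passed the test between the labelled groups. By limma on log2(normalized count + 1), 0 of 51 were higher and 0 were lower at an adjusted p under 0.05, and the background over 11649 tested genes was 0% in each direction. By edgeR and DESeq2 on the recovered reads, 0 members were called as well, and of all genes edgeR called 0% and DESeq2 0.0143%, all of them lower. At an unadjusted p under 0.05, 14 members were lower by limma and 0 were higher, which is 27.5% lower beside 5.07% lower and 2.12% higher among all tested genes. That count was 11 by edgeR, beside 3.79% of all genes, and 11 by DESeq2, beside 4.63%. By limma without a mean-variance trend it was 1 (2.82% of all tested genes). With 1 library left out it was 31 without GC-treated 1 (12.2% of all tested genes), 5 without GC-treated 2 (3.32%) and 5 without GC-treated 3 (2.66%). It was 7 without vehicle-treated 1 (1.98%), 1 without vehicle-treated 2 (1.67%) and 10 without vehicle-treated 3 (4.24%). Log2 fold changes (GC-treated minus vehicle-treated) were negative for 47 members, where 51.5% of all tested genes were negative, and positive for Ccnb2, Pttg1, Spc24 and Spc25. Their median was -0.18 beside -0.0079 over all tested genes, and they ran from -0.71 for Aspm to 0.057 for Pttg1. Their standard errors were 0.075 to 0.29, and the adjusted p-values (limma) ran from 0.62 to 0.97.

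**Figure D1:**
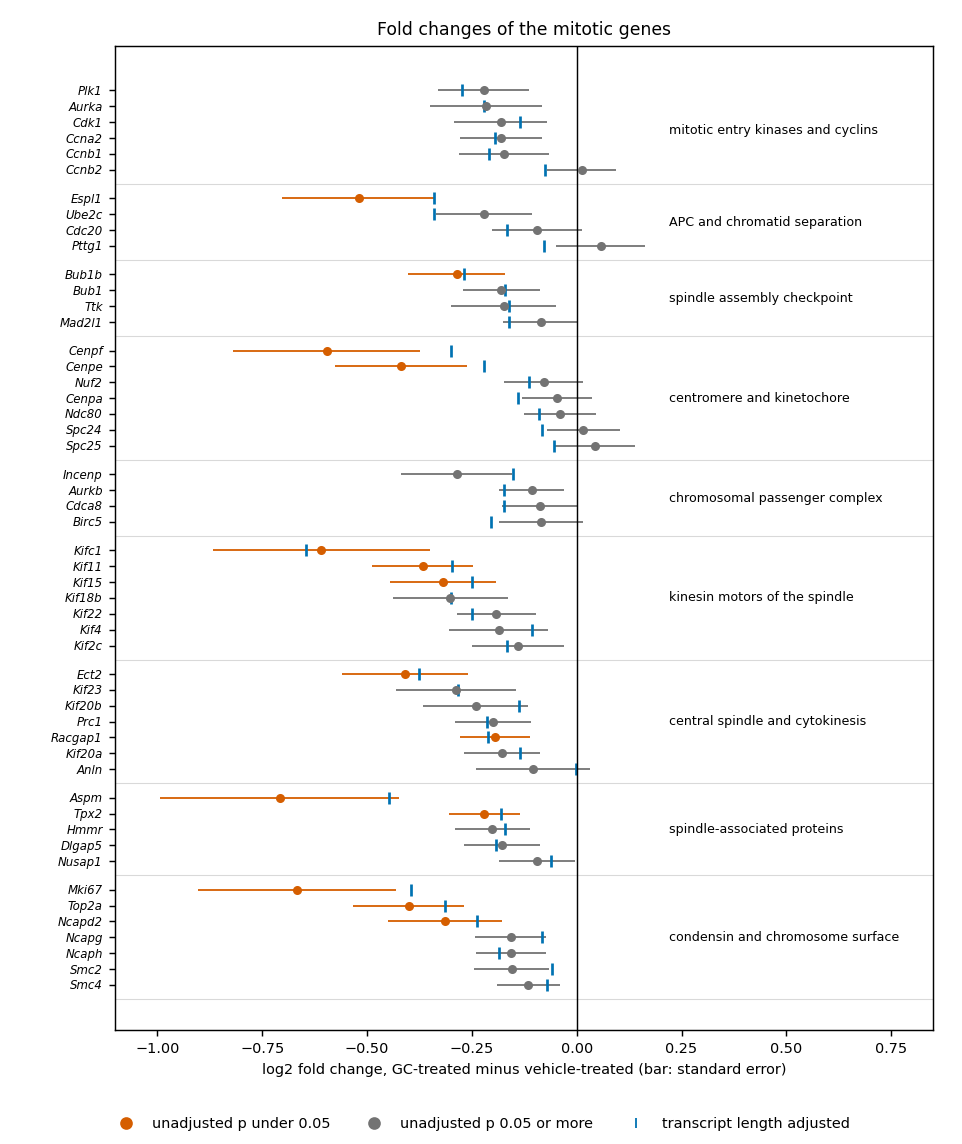
Log2 fold change of each of the 51 mitotic genes on the horizontal axis, GC-treated minus vehicle-treated, grouped by role. Points are limma estimates with standard errors, orange where the unadjusted p was under 0.05, and blue ticks are the values after adjustment for transcript length; 47 points lie below 0.

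The 3 libraries labelled GC-treated were not alike in these genes. The median log2 deviation of the members from their 6-library means was 0.053, -0.19 and -0.15 under the GC label. Under the vehicle label it was 0.052, 0.17 and 0.079. GC-treated 1 therefore lay at the level of vehicle-treated 1. It was within the vehicle-treated range for 32 members, below it for 16 and above it for 3, namely Ttk, Kifc1 and Anln. GC-treated 2 lay below every vehicle-treated library for 45 members and above every vehicle-treated library for 0. GC-treated 3 lay below every vehicle-treated library for 38 members and above all of them for 3, which were Ccnb2, Spc24 and Spc25. Vehicle-treated 2 was the highest library for 42 members. For these counts by single library the shares over all tested genes were not counted, so they only describe the members. The members took 1.31%, 1.07% and 1.09% of the reads under the GC label and 1.30%, 1.47% and 1.30% under the vehicle label. For 12 members (23.5%) all GC-treated libraries lay below all vehicle-treated libraries, beside 6.40% of all tested genes.

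**Figure D2:**
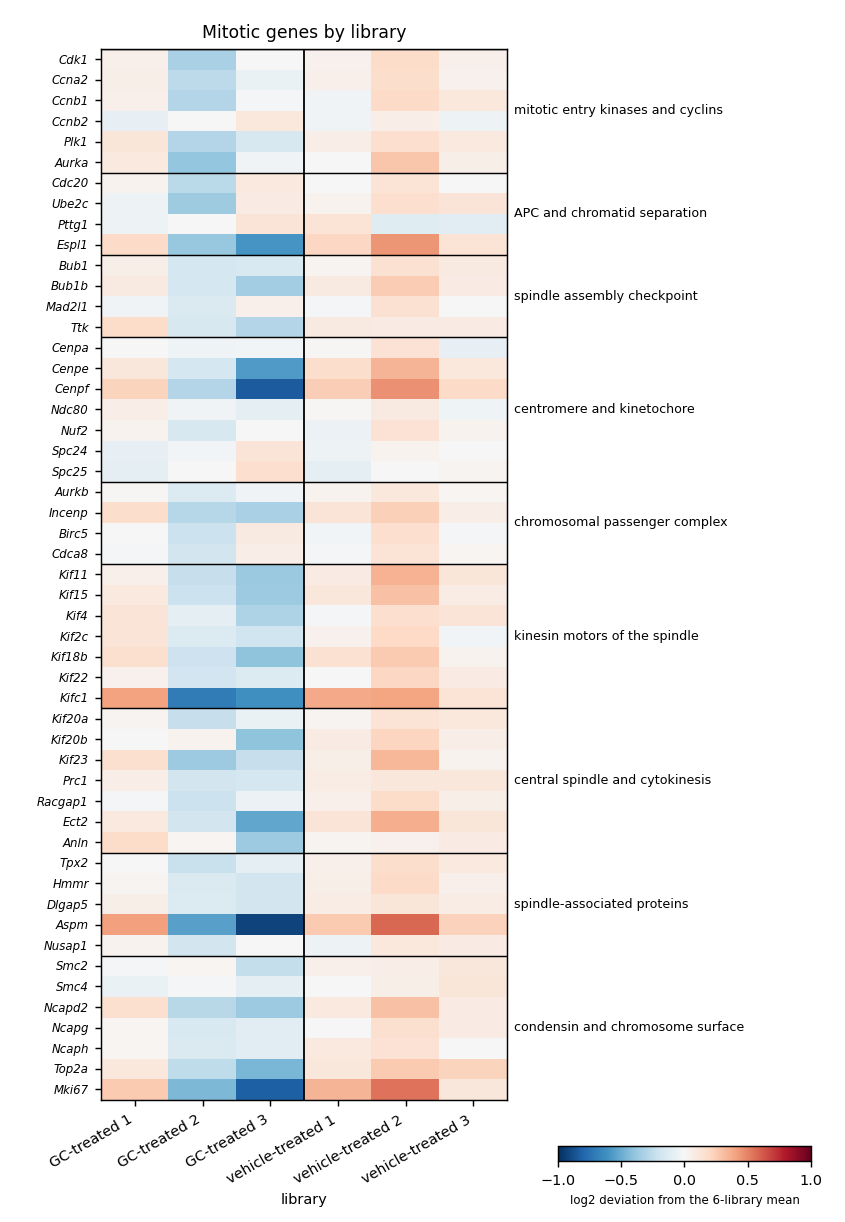
Log2 deviation of each mitotic gene from its mean over the 6 libraries (rows, grouped by role; columns, libraries; blue lower, red higher). GC-treated 2 and GC-treated 3 hold most of the low values, and GC-treated 1 is coloured like the vehicle-treated libraries.

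Leaving out GC-treated 1 changed which genes were called. Without GC-treated 1, 4 members were lower at an adjusted p under 0.05, or 7.84% of the members beside 0.369% of all tested genes, and 0 were higher beside 0.0172%. They were Aspm with a log2 fold change of -1.09 (adjusted p = 0.039, limma), Kifc1 with -0.96 (adjusted p = 0.039, limma), Mki67 with -0.96 (adjusted p = 0.046, limma) and Espl1 with -0.75 (adjusted p = 0.048, limma). Leaving out any other single library called 0 members. The 31 members lower at an unadjusted p under 0.05 without GC-treated 1 are 60.8%, beside 12.2% of all tested genes, and 0 were higher, beside 8.34%.

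The members varied together from library to library. Over the 6 libraries the Pearson correlation of a member's log2 values with the median of the other members had a median of 0.905. It was above 0.9 for 26 members. It was below 0 for Ccnb2, Pttg1, Spc24 and Spc25, and the lowest was -0.585. These values describe genes that share the scaling and depth of each library, and the same correlation was not computed for other genes.

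Promoter windows from RefSeq (GRCm38.p6, 250 bases before to 50 after the start site) were found for 43 of the 51 members, in 45 windows. The CCAAT box is the binding motif of NF-Y, and TTTGAA is the core of the cell cycle homology region bound by the DREAM complex, which represses such genes outside late cell cycle phases. CCAAT, on either strand, was in 34 of the 45 windows (75.6%) and in 37.4% of all 32851 windows. TTTGAA, on either strand, was in 36 (80.0%) and in 17.9% of all windows, and a window held each of them in 31 cases (68.9%) beside 6.95% of all windows. In 1 member window the motifs shared a base. These shares describe letters in the windows and not sites that a factor used. The windows below belong to the 4 members with the smallest unadjusted p among those that hold CCAAT and TTTGAA. Whether these motifs bear on how the members varied between libraries was not tested. Capitals mark CCAAT or its reverse complement ATTGG, and TTTGAA or its reverse complement TTCAAA. Kif11 lies at chr19:37376132-37376431 on the plus strand, Top2a at chr11:99024140-99024439 on the minus strand, Espl1 at chr15:102296043-102296342 on the plus strand and Mki67 at chr7:135716330-135716629 on the minus strand.
Kif11: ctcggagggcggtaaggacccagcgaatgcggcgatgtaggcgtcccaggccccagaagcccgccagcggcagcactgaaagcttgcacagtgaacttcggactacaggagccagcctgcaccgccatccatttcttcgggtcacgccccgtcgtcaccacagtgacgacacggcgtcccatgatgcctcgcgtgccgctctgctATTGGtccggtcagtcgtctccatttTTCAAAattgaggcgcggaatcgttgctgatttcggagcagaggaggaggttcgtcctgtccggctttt
Top2a: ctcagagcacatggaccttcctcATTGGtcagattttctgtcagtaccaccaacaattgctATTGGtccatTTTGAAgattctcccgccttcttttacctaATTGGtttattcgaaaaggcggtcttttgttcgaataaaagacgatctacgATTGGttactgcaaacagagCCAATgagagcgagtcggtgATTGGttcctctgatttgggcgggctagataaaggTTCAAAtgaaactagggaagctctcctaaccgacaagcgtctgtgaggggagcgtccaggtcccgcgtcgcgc
Espl1: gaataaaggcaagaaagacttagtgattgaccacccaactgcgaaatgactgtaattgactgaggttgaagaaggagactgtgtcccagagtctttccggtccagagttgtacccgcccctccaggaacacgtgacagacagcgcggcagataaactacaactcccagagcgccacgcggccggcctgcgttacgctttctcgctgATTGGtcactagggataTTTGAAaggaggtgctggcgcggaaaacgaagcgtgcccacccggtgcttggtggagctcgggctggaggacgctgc
Mki67: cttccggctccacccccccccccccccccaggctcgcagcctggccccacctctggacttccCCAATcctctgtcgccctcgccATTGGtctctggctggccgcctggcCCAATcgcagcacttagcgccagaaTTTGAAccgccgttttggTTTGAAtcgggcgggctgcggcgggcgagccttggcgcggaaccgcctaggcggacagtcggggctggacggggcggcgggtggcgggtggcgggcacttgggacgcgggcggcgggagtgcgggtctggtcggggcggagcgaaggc

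Counted from the start site, the motifs of Kif11 began at base -45 (CCAAT) and -19 (TTTGAA), and those of Espl1 at -44 and -27. The Top2a window held 6 CCAAT motifs, the nearest at -58, and 2 TTTGAA motifs, at -179 and -23. The Mki67 window held CCAAT at -188, -166 and -141 and TTTGAA at -116 and -98. In all 4 windows a CCAAT motif lay upstream of the TTTGAA motif nearest to the start.

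Mitotic entry kinases and cyclins (Cdk1, Ccna2, Ccnb1, Ccnb2, Plk1 and Aurka) had a median log2 fold change of -0.18, and 0 of 6 were at an unadjusted p under 0.05. For this and the other role groups, 51.5% of all tested genes were negative, and 5.07% were lower and 2.12% higher at that p. With 4 to 7 members each, the counts of a role group only describe it. Plk1, the polo-like kinase that acts from mitotic entry to cytokinesis, had normalized counts of 20952, 15758 and 17272 under the GC label and 20199, 21700 and 20635 under the vehicle label. GC-treated 2 and 3 lay below all vehicle-treated libraries and GC-treated 1 lay among them, with a log2 fold change of -0.22 ± 0.11 (SE). Cdk1, the kinase that drives mitotic entry, had 14841, 11434 and 14386 against 14744, 16286 and 14831. Here GC-treated 2 was the low library and GC-treated 1 lay within the vehicle-treated range, with a log2 fold change of -0.18 ± 0.11 (SE). Ccnb2, which encodes cyclin B2 and was the highest of the group per kilobase, had 21301, 22429 and 24208 against 21986, 23635 and 21706. The groups overlapped, and the log2 fold change of 0.012 ± 0.082 (SE) was smaller than its error. Ccna2, Ccnb1 and Aurka had values between -0.17 and -0.22. GC-treated 2 was the lowest library for 5 of the 6 genes.

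The group of the anaphase promoting complex and chromatid separation had a median of -0.16. At an unadjusted p under 0.05, 1 of 4 members was lower, beside 5.07% of all tested genes. That was Espl1 (GRCm39 chromosome 15, bases 102204701 to 102233535), which encodes separase, the protease that opens cohesin rings at anaphase. Its normalized counts were 15088, 10147 and 8767 under the GC label and 15266, 17902 and 14491 under the vehicle label. GC-treated 1 lay within the vehicle-treated range and GC-treated 2 and 3 lay well below it, with a log2 fold change of -0.52 ± 0.18 (SE). Ube2c, the ubiquitin-conjugating enzyme of the complex, had 19160, 15534 and 21018 against 20374, 22301 and 21793. Here GC-treated 3 lay within the vehicle-treated range and the other two below it, and the log2 fold change was -0.22 ± 0.11 (SE). Cdc20, the activator of the complex, had -0.094, and Pttg1, which encodes securin, the inhibitor of separase, had 0.057 ± 0.11 (SE).

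The 4 spindle assembly checkpoint genes were all negative, with a median of -0.18. Bub1b encodes BubR1, a subunit of the complex that inhibits Cdc20, and its normalized counts were 24986, 20805 and 18475 under the GC label and 24982, 28019 and 24874 under the vehicle label. GC-treated 1 matched the lower vehicle-treated libraries, GC-treated 2 and 3 lay below them, and the log2 fold change was -0.29 ± 0.12 (SE). It was the only one of the 4 at an unadjusted p under 0.05, beside 5.07% of all tested genes lower. Ttk, the kinase Mps1 that starts checkpoint signalling, had 5113, 4033 and 3679 against 4793, 4763 and 4772. GC-treated 1 lay above and the other two below the narrow vehicle-treated range, and the log2 fold change was -0.17 ± 0.13 (SE). Mad2l1, which encodes the checkpoint protein Mad2, had 12209, 11306 and 12954 against 12312, 13874 and 12520, so the groups overlapped, with -0.086 ± 0.089 (SE). Bub1, the kinase that recruits the others to kinetochores, had -0.18.

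Centromere and kinetochore genes had the median closest to 0 of the 9 groups, -0.047. Cenpf (GRCm39 chromosome 1, bases 189372752 to 189420315), which encodes a large outer kinetochore protein, had normalized counts of 10180, 7115 and 4904 under the GC label and 10337, 11929 and 9953 under the vehicle label. GC-treated 3 was at the lowest level, GC-treated 1 lay within the vehicle-treated range, and the log2 fold change was -0.60 ± 0.22 (SE). Cenpe, which encodes the kinetochore motor CENP-E, had -0.42 ± 0.16 (SE). Cenpf and Cenpe were the only members of the 7 at an unadjusted p under 0.05, beside 5.07% of all tested genes lower. Cenpa, the histone H3 variant that marks centromeres, had 16307, 15792 and 15989 against 16410, 17977 and 15388, so the groups overlapped, with -0.047 ± 0.084 (SE). The 4 subunits of the NDC80 complex, which grips the microtubule end, had values near 0. Ndc80 and Nuf2 had -0.039 and -0.079, and Spc24 and Spc25 had 0.016 and 0.044. In Spc25, GC-treated 3 at 7642 was above all vehicle-treated libraries, which had 6381 to 6947.

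The chromosomal passenger complex, which corrects wrong attachments, had a median of -0.098 and 0 of 4 members at an unadjusted p under 0.05. Incenp, its scaffold, had normalized counts of 26458, 19228 and 18659 under the GC label and 25527, 27602 and 24431 under the vehicle label. GC-treated 1 lay within the vehicle-treated range and the other two below it, with -0.29 ± 0.13 (SE). Birc5, which encodes survivin and was the highest member per kilobase, had 22682, 19632 and 24191 against 22358, 25589 and 22458. Only GC-treated 2 was below the vehicle-treated range, and the log2 fold change was -0.085 ± 0.10 (SE). Aurkb, the kinase of the complex, had -0.11, and Cdca8, which encodes borealin, had -0.088.

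The kinesin motors of the spindle had the most negative median of the 9 groups, -0.30. All 7 were negative, 3 of them at an unadjusted p under 0.05, beside 51.5% negative and 5.07% lower among all tested genes. Kif11 (GRCm39 chromosome 19, bases 37364799 to 37410307) encodes Eg5, the motor that pushes spindle poles apart, and had the smallest unadjusted p of all members. Its normalized counts were 28727, 23623 and 21510 under the GC label, a mean of 24620 ± 3710 (SD, n = 3). Under the vehicle label they were 29403, 35393 and 30134, a mean of 31643 ± 3268 (SD, n = 3). All GC-treated libraries lay below all vehicle-treated libraries, GC-treated 1 by the smallest margin, with a log2 fold change of -0.37 ± 0.12 (SE) and an adjusted p of 0.62 (limma). Kif22, a chromosome arm motor, had 20482, 17370 and 18048 against 19789, 22958 and 21084, with GC-treated 1 within the vehicle-treated range and -0.19 ± 0.094 (SE). Kif15, which can share the work of Eg5, had -0.32 ± 0.13 (SE), and Kif18b, Kif4 and Kif2c had -0.30, -0.19 and -0.14.

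Kifc1 (GRCm39 chromosome 17, bases 34094633 to 34109769), a minus-end motor that focuses spindle poles, stood out among the kinesins. It had normalized counts of 4191, 1954 and 2067 under the GC label and 4132, 4179 and 3477 under the vehicle label. GC-treated 1 was above all vehicle-treated libraries and the other two were far below them, with a log2 fold change of -0.61 ± 0.26 (SE). Its value is uncertain, because 45.8% of the 50-base windows of its transcript are also in transcripts of other genes, 44.1% in its near copy Kifc5b. Kifc5b, named for that reason, had 1242, 708 and 534 against 1130, 1264 and 885, so GC-treated 2 and 3 were low for it as well. How reads common to both were counted was not tested. More than 5% of windows were shared in 7 members, next most in Ccnb1 with 41.5%, mainly with the pseudogene Ccnb1-ps, and in 23 members no window was shared.

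**Figure D3:**
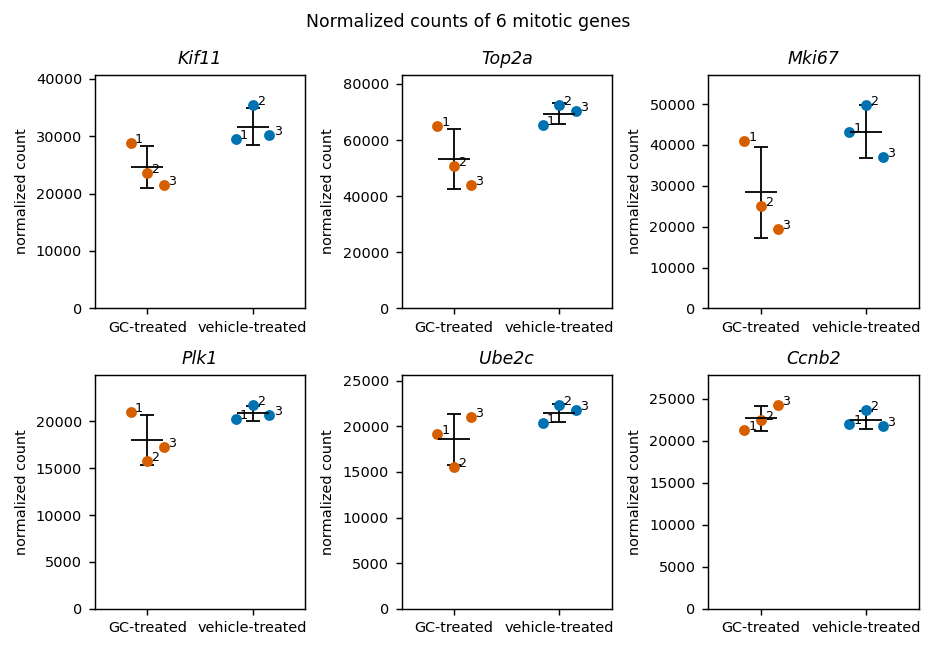
Normalized counts of 6 mitotic genes (vertical axes, from 0) in each library by group, with the group mean and SD. In Kif11 and Top2a the groups do not overlap, and in the others at least 1 GC-treated library lies within or above the vehicle-treated range.

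Central spindle and cytokinesis genes had a median of -0.20, and all 7 were negative. Ect2 (GRCm39 chromosome 3, bases 27151371 to 27208029), the exchange factor that activates RhoA at the division plane, had normalized counts of 8640, 7104 and 5633 under the GC label and 8835, 10433 and 8786 under the vehicle label. The groups did not overlap, GC-treated 3 was the lowest library, and the log2 fold change was -0.41 ± 0.15 (SE). Racgap1, which encodes a subunit of centralspindlin, had 31332, 27354 and 30404 against 32804, 36033 and 33051. Again the groups did not overlap, with -0.19 ± 0.084 (SE). Ect2 and Racgap1 were the members of this group at an unadjusted p under 0.05, beside 5.07% of all tested genes lower. Anln, which encodes the contractile ring protein anillin, had 5470, 4881 and 3743 against 4906, 4965 and 5087, with GC-treated 1 above and the other two below the vehicle-treated range and -0.10 ± 0.14 (SE). The kinesins Kif23, Kif20b and Kif20a and the microtubule bundler Prc1 had -0.29, -0.24, -0.18 and -0.20.

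Spindle-associated proteins also had a median of -0.20, and all 5 were negative. Tpx2, which activates Aurora A on the spindle, had normalized counts of 21067, 18100 and 19726 under the GC label and 21958, 23885 and 22688 under the vehicle label. The groups did not overlap, with a log2 fold change of -0.22 ± 0.085 (SE). Aspm (GRCm39 chromosome 1, bases 139382486 to 139421829), a spindle pole protein and the lowest member per kilobase, had 8081, 4176 and 3198 against 7301, 9039 and 7133. GC-treated 1 lay within the vehicle-treated range and GC-treated 2 and 3 were far below it, which gave -0.71 with the largest error of the members, 0.29 (SE). Hmmr, Dlgap5 and Nusap1 had -0.20, -0.18 and -0.094.

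The group of condensin and the mitotic chromosome surface had a median of -0.16, with all 7 negative. Top2a (GRCm39 chromosome 11, bases 98883769 to 98915062), the topoisomerase that untangles sister chromatids and the member with the most reads, had normalized counts of 65075, 50658 and 43901 under the GC label, a mean of 53211 ± 10815 (SD, n = 3). Under the vehicle label it had 65210, 72484 and 70477, a mean of 69390 ± 3757 (SD, n = 3). The groups did not overlap, but GC-treated 1 and vehicle-treated 1 nearly met, and the log2 fold change was -0.40 ± 0.13 (SE). Mki67 (GRCm39 chromosome 7, bases 135291513 to 135318299), which coats mitotic chromosomes, encodes the proliferation marker Ki-67 and was described after its values were seen, had 40932, 24952 and 19416 against 43158, 49759 and 36932. GC-treated 1 lay within the vehicle-treated range and the other two well below it, with -0.67 ± 0.24 (SE). Within condensin I, the non-SMC subunit Ncapd2 had -0.32 ± 0.14 (SE). Ncapg had 13212, 11755 and 12160 against 13053, 14553 and 13795, with GC-treated 1 within the vehicle-treated range and -0.16 ± 0.085 (SE). The ATPase subunits Smc2 and Smc4 and the kleisin subunit Ncaph had -0.15, -0.12 and -0.16. Top2a, Mki67 and Ncapd2 were at an unadjusted p under 0.05, beside 5.07% of all tested genes lower.

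The size of the difference went with transcript length. Across the 51 members the log2 fold change had a Pearson r of -0.71 and a Spearman rho of -0.66 with log2 transcript length, a description across genes measured in the same libraries. The slope was -0.14 per doubling of length. The 17 shortest members, of 762 to 2546 bases, had a median of -0.086, and 13 of them were negative. The 17 of 2695 to 4253 bases had a median of -0.19, the 17 of 4320 to 11210 bases had -0.32, and all of these were negative. Kifc1, of 2491 bases, was the exception among the short members, and the 4 positive members had 762 to 1576 bases.

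All tested genes showed the same kind of slope. Across 11404 tested genes with a known length the slope was -0.10 per doubling, with a Pearson r of -0.21 and a Spearman rho of -0.36. In 10 classes of length, the 1141 shortest genes had a median log2 fold change of 0.12 and the 1141 longest of -0.25. The steepest library was GC-treated 3: per doubling of length, values over all tested genes moved by -0.15 in GC-treated 3, by -0.026 in GC-treated 2 and by 0.027 to 0.054 in the others. Without GC-treated 3 the slope of the log2 fold change was -0.050 per doubling over all tested genes and -0.057 over the mitotic genes. For the mitotic genes these slopes were -0.24 in GC-treated 3, -0.046 in GC-treated 2 and 0.054 to 0.099 in the others. In GC-treated 3 the shortest members had a median log2 deviation of 0.051 and the longest of -0.36. In GC-treated 2 the corresponding medians were -0.16 and -0.23, so there the short members were low as well.

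**Figure D4:**
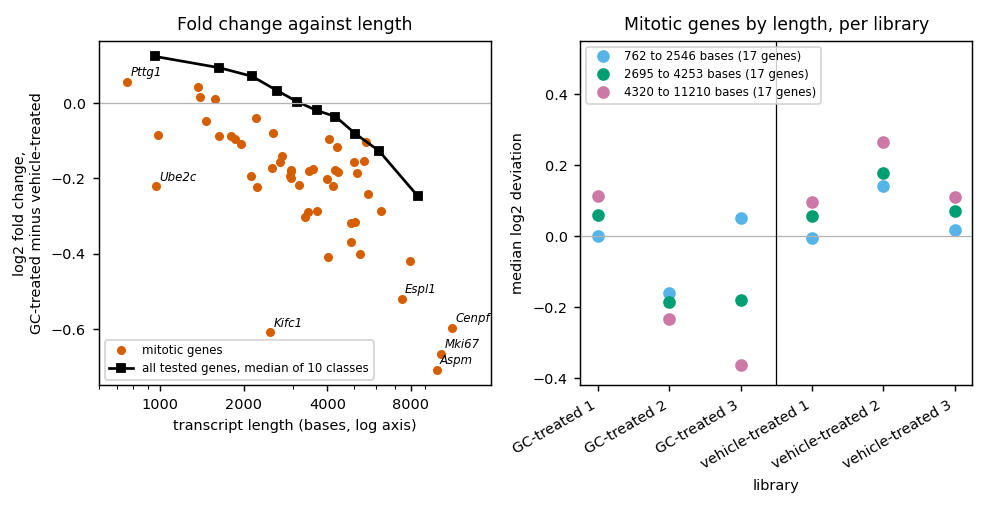
Left, log2 fold change of the 51 mitotic genes (points) and medians of 10 length classes of all tested genes (squares) against transcript length in bases on a log axis. Right, median log2 deviation of the members in 3 length classes of 17 in each library; the classes spread from 0.051 to -0.36 in GC-treated 3 and lie closer together in the other libraries.

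With the smooth dependence on length over all tested genes removed from each library, an adjustment chosen after seeing the data, all 51 members were negative, beside 49.6% of all tested genes, and the median stayed at -0.18. At an unadjusted p under 0.05, 20 members were lower (39.2% beside 4.06%), and 0 passed the adjusted threshold. The library medians were then 0.067, -0.19 and -0.15 under the GC label and 0.053, 0.18 and 0.057 under the vehicle label. The long genes came closer to 0, with -0.45 for Aspm, -0.40 for Mki67, -0.34 for Espl1 and -0.30 for Cenpf, and Kifc1 had -0.65. Some short genes moved away from 0, such as Ube2c with -0.34 and Birc5 with -0.20. Without GC-treated 1 as well, only Kifc1 stayed under an adjusted p of 0.05 among the members (log2 fold change -1.02, adjusted p = 0.035, limma), beside 0.149% of all tested genes lower.

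Other genes of the same pathways, 144 in 6 lists with 141 tested, had a median of -0.088. Of these 101 were negative, 18 were lower and 0 higher at an unadjusted p under 0.05, and 0 passed the adjusted threshold. Among all tested genes 51.5% were negative, and 5.07% were lower and 2.12% higher at that unadjusted p. Of 31 other kinetochore genes 22 were negative, with a median of -0.063. Knl1, the scaffold that docks checkpoint proteins, had normalized counts of 7752, 5951 and 4597 under the GC label and 8121, 9740 and 8313 under the vehicle label, with a log2 fold change of -0.54, and Kntc1 had -0.50. Of 20 other checkpoint and APC/C genes 14 were negative, with a median of -0.039 and with -0.37 for Cdc27 and -0.19 for Mad1l1. Of 16 genes of condensin II and cohesin 14 were negative, with a median of -0.20 and with -0.29 for the cohesin subunit Rad21 and -0.39 for its loader Nipbl.

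Of 42 other spindle and cytokinesis genes 30 were negative, with a median of -0.11. At an unadjusted p under 0.05, 8 were lower, beside 5.07% of all tested genes. Iqgap3 and Troap had -0.34 each. Of 21 G2/M transcription and kinase regulators 12 were negative, with a median of -0.076. Foxm1, the transcription factor that drives many G2/M genes, had normalized counts of 11750, 8320 and 7485 under the GC label and 12827, 12687 and 11584 under the vehicle label, with GC-treated 1 just above vehicle-treated 3, GC-treated 2 and 3 below all vehicle-treated libraries and a log2 fold change of -0.46. Mastl, the kinase that restrains the opposing phosphatase, had -0.41. Of 11 centriole duplication genes 9 were negative, with a median of -0.15 and with -0.44 for Ccp110 and -0.31 for Cep192.

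Genes of earlier cell cycle phases were measured beside them. Of 51 tested genes of DNA replication and S phase, 21 were negative and 30 positive, with a median of 0.041. At an unadjusted p under 0.05, 2 were higher and 0 lower, beside 2.12% and 5.07% of all tested genes. These were Orc1, a subunit of the origin recognition complex, with 0.30, and Fen1, the flap endonuclease, a low gene with 0.49. They took 1.39% to 1.47% of the reads in the 6 libraries, a narrower range than that of the mitotic genes. Of 20 G1 cyclins, E2F factors and CDK inhibitors 10 were negative, with a median of -0.025 and with -0.44 for E2f3 and -0.55 for Cdk6. At an unadjusted p under 0.05, 3 of these were lower and 0 higher, beside 5.07% and 2.12% of all tested genes. The difference between these lists and the mitotic genes was not tested.

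**Figure D5:**
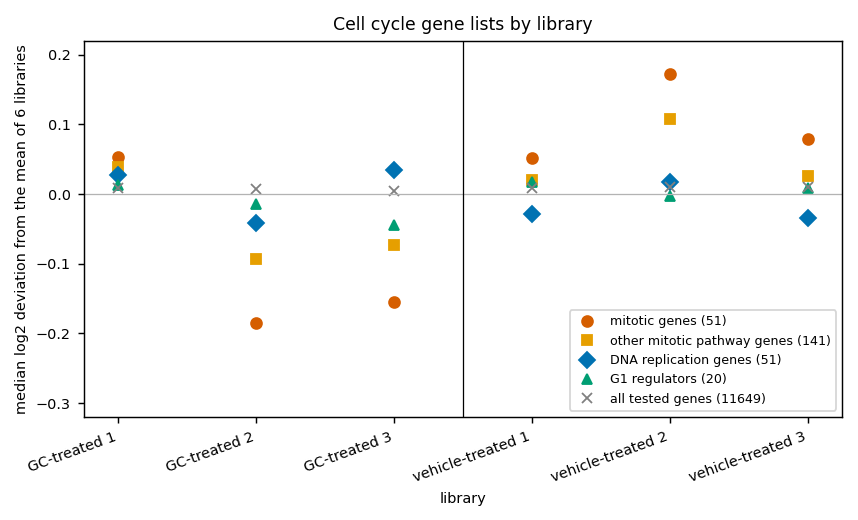
Median log2 deviation from the 6-library mean (vertical axis) of the mitotic genes, the other mitotic pathway genes, the DNA replication genes, the G1 regulators and all tested genes in each library. The mitotic genes have the lowest medians in GC-treated 2 and 3, -0.19 and -0.15, and the highest in vehicle-treated 2, 0.17, while the DNA replication genes lie between -0.041 and 0.035.

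Markers of other cells that the sort could hold were measured as well. Of 13 neutrophil and granulocyte precursor markers, 11 were listed and tested, with summed normalized counts of 1851, 12361 and 8499 under the GC label and 671, 372 and 4248 under the vehicle label. The sums were highest in GC-treated 2 and 3, the libraries with the lowest mitotic values. Ltf led in GC-treated 2 with 5785, and S100a8 led in GC-treated 3 with 2556, just above Ltf with 2499. Mpo, Elane, Prtn3 and Ctsg were instead highest in vehicle-treated 3, with 795, 363, 195 and 135. Ltf was at 0 in vehicle-treated 1, and Retnlg and Mmp8 were at 0 in vehicle-treated 1 and 2. Of 10 erythroid progenitor markers 7 were listed, with sums of 373 to 494 in the GC-treated and 493 to 937 in the vehicle-treated libraries. Hba-a1 was the highest on average. Gata1 did not follow these sums, with 54.5, 183 and 116 under the GC label against 119, 70.3 and 86.6 under the vehicle label. The part of these cells in the mitotic values was not tested.

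For 4 CD4+ T cell markers the sums were 828 to 1041 in the GC-treated and 1154 to 1353 in the vehicle-treated libraries. Zbtb7b was highest on average, but Foxp3 was above it in GC-treated 3 (524 against 272) and vehicle-treated 3 (595 against 418). For 4 NK cell markers the sums were 5237 to 6197 and 5142 to 6362, mainly Eomes, and Ncr1 had only 13.9 to 38.7. For 7 of 10 B cell and precursor markers they were 19210 to 23271 and 18870 to 27529, nearly all from Ighm. For 6 of 10 monocyte, macrophage and dendritic cell markers they were 28869 to 36902 and 23030 to 35449, mainly Ccr2, which activated T cells also express, and Flt3 was at 0 in 2 libraries. Mitochondrial genes took 0.902%, 0.400% and 0.615% of the reads under the GC label and 0.910%, 1.13% and 0.757% under the vehicle label, so that GC-treated 2 and 3 were lowest here too, and the part of this in the mitotic values was not tested.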

How the data were processed

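Per the methods of the study, the authors mapped reads to GRCm39 (Gencode M26) with STAR, used summarizeOverlaps for gene counts and DESeq2 for their own comparison. The sources used here give no versions for them. The deposited table holds a signal per gene and library, counts that the authors had divided by a size factor, for 14051 gene symbols. Within a tolerance of 0.001 of a read, every value was a multiple of the value of 1 read in its library, which gave back the reads. For GC-treated 2 that value (0.992) lies close to 1. The table had 0 columns of unknown sample, and all 6 libraries were used.

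The 51 genes, the other lists and the tests were chosen with earlier results of these data known. Log2(normalized count + 1) was fitted with limma 3.58.1 (mean-variance trend, two-sided, no covariate) in R 4.3.3. The fit covered 11649 genes that reached 10 normalized counts in 3 or more libraries, p-values were adjusted by Benjamini-Hochberg over all of them, and the threshold was 0.05. Fold changes are on that log2 scale. Lists are described by counts and medians, without a set test. The tools edgeR 4.0.16 and DESeq2 1.42.0 were applied to the recovered reads, beside other scalings, filters, pseudocounts, a replicate block and the omission of each library as alternatives. Same-numbered libraries did not deviate together (correlations 0.063, -0.14 and 0.13), so the numbers were not taken as pairs.

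Positions and canonical transcript lengths come from the M39 release of Gencode on GRCm39, which is newer than the one the authors used. It held 13727 of the symbols and all 51 members. The kit used for the libraries is not stranded, and 28 members have exons that overlap another gene, so reads of the 2 genes cannot be told apart there. Members were named as those with the smallest p and with the highest and lowest level per kilobase in each role group, plus any member called, and for other lists the 2 genes with the smallest p or, for cell markers, the highest mean. Other genes were named as well, some after their values were seen, and only part of these are marked where they appear. An exact permutation test of a single gene could not pass the threshold with 3 libraries against 3, which is why a fit across genes was used.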

Additional observations from a re-analysis of the deposited data

How the results depend on the processing

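Every member had at least 1954 normalized counts in every library. GC-treated 1 lay apart from the other libraries of its label in these genes. Over all tested genes it was most like vehicle-treated 1, but GC-treated 2 and 3 were not alike there either. Their chi-square per gene was 94, and GC-treated 2 was closer to vehicle-treated 3, with 61.8. Of 11 glucocorticoid targets 9 had negative log2 fold changes, and GC-treated 3 had the steepest dependence on length. Summed neutrophil markers were highest in GC-treated 2 and 3, while Mpo, Elane, Prtn3 and Ctsg were highest in vehicle-treated 3. The causes were not tested.

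Over 20 alternatives the median log2 fold change of the members kept its sign, from -0.26 to -0.14. Higher members at an adjusted p under 0.05 numbered 0 throughout. Leaving out each library in turn gave 0 to 4 lower members, 0 to 43 lower genes and 0 to 2 higher genes over all tested genes, with the values above 0 reached without GC-treated 1. With the replicate block, 0 members and 0 genes were called in each direction, the median was -0.18, and 14 members were lower at an unadjusted p under 0.05, as without it. Over all genes DESeq2 called 2 lower and limma without a trend 1 lower. Without a trend 1 member was lower at an unadjusted p under 0.05, beside 2.82% of all tested genes. With transcript length adjusted and GC-treated 1 left out, 1 member was lower, and over all genes 17 were lower and 2 higher.

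Leaving out 1 library turned the sign of 7 members, whose ranges were -0.16 to 0.017 for Cdc20, -0.15 to 0.00018 for Birc5, -0.037 to 0.055 for Ccnb2, -0.044 to 0.059 for Spc24, -0.027 to 0.10 for Spc25, -0.22 to 0.052 for Anln and -0.10 to 0.012 for Cenpa. With transcript length adjusted, Ccnb2, Pttg1, Spc24 and Spc25 turned to -0.075, -0.077, -0.082 and -0.055, and without GC-treated 1 as well to -0.071, -0.083, -0.080 and -0.039. These 8 members passed the test in 0 fits.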
